A study of Pyronema omphalodes CBS 100304 with 9 samples.

Results

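The transcripts followed here are wetA (PCON_02676), flbA (PCON_02904) and stuA (PCON_09042) of the apothecium-forming ascomycete Pyronema omphalodes, also called Pyronema confluens. They were taken by locus tag from the 13369 gene models of the deposited count table, so 3 of 13369 genes are described. Each carries the product description of a regulator known from asexual sporulation of Aspergillus nidulans. The rule that picks them uses the locus tags, but they were chosen with earlier results of these data known.

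In Aspergillus nidulans, asexual spores called conidia are made on a stalk, and a cascade of transcription factors named BrlA, AbaA and WetA drives the steps from stalk to mature spore. WetA acts late and is needed for the conidial wall to mature. FlbA is a regulator of G protein signalling (RGS protein), which speeds up GTP hydrolysis by a G protein alpha subunit and so ends a growth signal that holds sporulation back, and FluG acts upstream of the cascade. StuA belongs to the fungal APSES transcription factors. It shapes the spore-bearing stalk in that species and is also needed there for fruiting bodies.

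RNA sequencing was done on 9 libraries of the strain CBS 100304 in 4 groups. Protoapothecia, the young fruiting bodies, came from slides with 150 µl of WPC medium and 0.8% agar after 4 d at 25 °C. They were fixed in ethanol, cut out by laser, and their RNA was amplified linearly (3 libraries, A, B and C, named as biological replicates in the series' design text). Whether the slides stood in light or darkness is not stated. Sexual mycelium (2 libraries) came from WPC surface cultures in constant light, and vegetative mycelium (2 libraries) from the same kind of culture in constant darkness. RNA of days 3, 4 and 5 was pooled in both. The vegetative pool (2 libraries) mixed RNA of 3-day cultures, namely submerged WPC cultures in light and in darkness and a BMM surface culture in darkness. No gene was altered in any group. Tissue dissection, fixation and amplification go with the protoapothecia alone, so for every difference between this group and a mycelium group, tissue and preparation cannot be told apart. Between sexual and dark vegetative mycelium, light and sexual development cannot be told apart either. The same holds for day, submersion, medium and light where the pool is compared with a surface mycelium. The labels call each mycelium library a technical replicate and do not say whether replicates 1 and 2 came from separate cultures, so the p-values rest on a spread between libraries that may be technical.

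The shallowest library, protoapothecia B, held 5583951 counts, and the other 8 held 14265890 to 24803660. Levels are given as CPM, the counts per 1000000 counts of the library after TMM scaling, which aligns the bulk of genes between libraries. The TMM factors were 0.816 to 0.837 in protoapothecia, 1.21 in both sexual libraries and 1.04 to 1.07 in the other 4. Of all genes, 11787 passed the filter on low counts, the 3 regulators among them with 667 to 25183 counts per library. A gene is said to be called, or to have risen or fallen, where edgeR's quasi-likelihood test gave an adjusted p below 0.05 over all tested genes.

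The gene models differ in structure. wetA lies on scaffold 1275 at 1935 to 3574 on the plus strand and is a single exon with 942 coding bases for 314 residues, a 5′ UTR of 57 bases and a 3′ UTR of 641 bases. flbA lies on scaffold 1330 at 403359 to 406915 on the minus strand, with 5 exons, 2949 coding bases for 983 residues, no annotated 5′ UTR and a 3′ UTR of 351 bases. stuA lies on scaffold 415 at 56025 to 59202 on the plus strand, with 4 exons, 2364 coding bases for 788 residues, a 5′ UTR of 118 bases and a 3′ UTR of 488 bases. None of them overlaps another gene model. In the authors' deposited table the flbA protein has Pfam hits for the RGS domain and the DEP domain, a membrane-targeting domain common in RGS proteins. The wetA and stuA proteins have no Pfam hit above the threshold in that table, so the stuA name rests on the similarity search and not on an APSES-type domain hit. The authors' deposited table predicts a nuclear location first for wetA (WoLF PSORT score 21.5) and stuA (22.5), and an extracellular one for flbA (12).

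Of the 3 regulators, wetA separated the groups most widely. Protoapothecia A, B and C had 1153, 1208 and 1245 CPM, from 23157, 5650 and 25183 counts. The vegetative mycelium followed with 472.8 and 526.3 CPM, the vegetative pool with 81.2 and 121.1 CPM, and the sexual mycelium with 61.7 and 66.6 CPM. No library of one group overlapped with a library of another, and the order was protoapothecia, dark vegetative mycelium, vegetative pool and sexual mycelium. The share of all tested genes whose 4 groups separate in this way was not counted, so the separation is a description only. In bulk samples such as these, fewer cells of a type and less RNA per cell cannot be told apart.

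**Figure D1:**
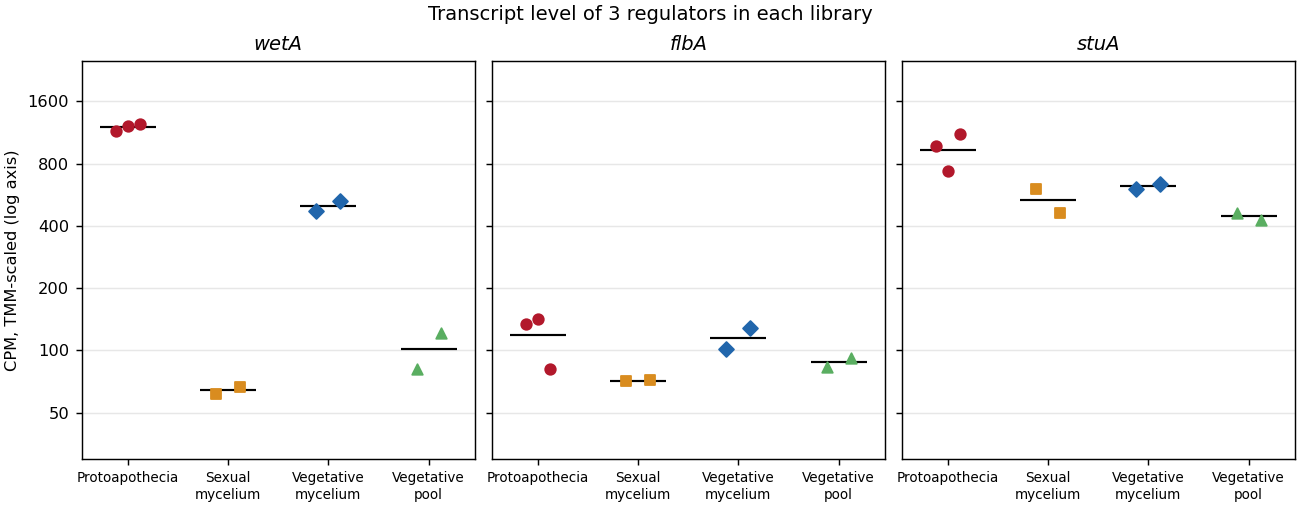
Level of wetA, flbA and stuA in each library, in TMM-scaled CPM on a log axis, with 1 point per library and a bar at the group mean (3 protoapothecium libraries, 2 in each other group). The wetA points fall into 4 separate levels from 61.7 to 1245 CPM, the flbA points stay between 71.5 and 142.7 CPM, and the stuA points stay between 429.1 and 1105 CPM.

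The mean wetA level was 1202 ± 46.4 CPM (SD, n = 3) in protoapothecia and 64.2 ± 3.46 CPM (SD, n = 2) in sexual mycelium. That was an 18.7-fold difference with a 95% interval of 12.3 to 28.6 (log2 4.23, SE 0.27, edgeR adjusted p = 4.02e-06). All 3 regulators were called higher in protoapothecia than in sexual mycelium, where 61.2% of all tested genes were called in either direction and 26.7% were called higher. The flbA and stuA calls depended on the scaling, as given with each gene.

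Against dark vegetative mycelium, at 499.5 ± 37.8 CPM (SD, n = 2), wetA was 2.41-fold higher in protoapothecia with a 95% interval of 1.68 to 3.46 (log2 1.27, SE 0.23, edgeR adjusted p = 0.000966). It was the 1 of 3 regulators called there, against 69.3% of all tested genes in either direction and 36.4% higher. Against the vegetative pool, at 101.2 ± 28.2 CPM (SD, n = 2), wetA was 11.9-fold higher with a 95% interval of 7.91 to 17.9 (log2 3.57, SE 0.26, edgeR adjusted p = 4.33e-06). There 2 of 3 regulators, wetA and stuA, were called, against 69.1% of all tested genes in either direction and 34.8% higher. Calls were thus the usual outcome for a gene in each comparison with protoapothecia.

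Among the mycelium groups, wetA was the 1 regulator called, and it was low in the light-grown sexual cultures. It was 7.78-fold higher in dark vegetative than in sexual mycelium (log2 of sexual over vegetative −2.96, 95% interval −3.55 to −2.37, edgeR adjusted p = 7.80e-05), a comparison in which 29.6% of tested genes were called, 20.6% higher and 9% lower in sexual mycelium. In dark vegetative mycelium it was also 4.94-fold higher than in the vegetative pool (log2 2.30, 95% interval 1.73 to 2.88, edgeR adjusted p = 0.00209). Only 5.2% of tested genes were called between these 2 kinds of vegetative culture, and 1.79% of tested genes were called higher in the dark surface culture.

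The step between the 2 lowest groups was the one that missed the threshold. Sexual mycelium lay below the vegetative pool by a log2 difference of −0.66 (95% interval −1.21 to −0.10, edgeR adjusted p = 0.0756), with the groups not overlapping. No regulator was called in that comparison, in which edgeR called 29.3% of tested genes, 19.8% higher and 9.48% lower in sexual mycelium. At an unadjusted p below 0.05 wetA was the 1 gene of 3, and DESeq2 called 0 of 3 (wetA adjusted p = 0.0508). Without protoapothecia B, which shares the estimate of spread, the edgeR adjusted p was 0.0467 at the same log2 difference of −0.66. The other 5 wetA calls held in every alternative run, with the change against sexual mycelium between 3.68 and 4.42 on the log2 scale.

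**Figure D2:**
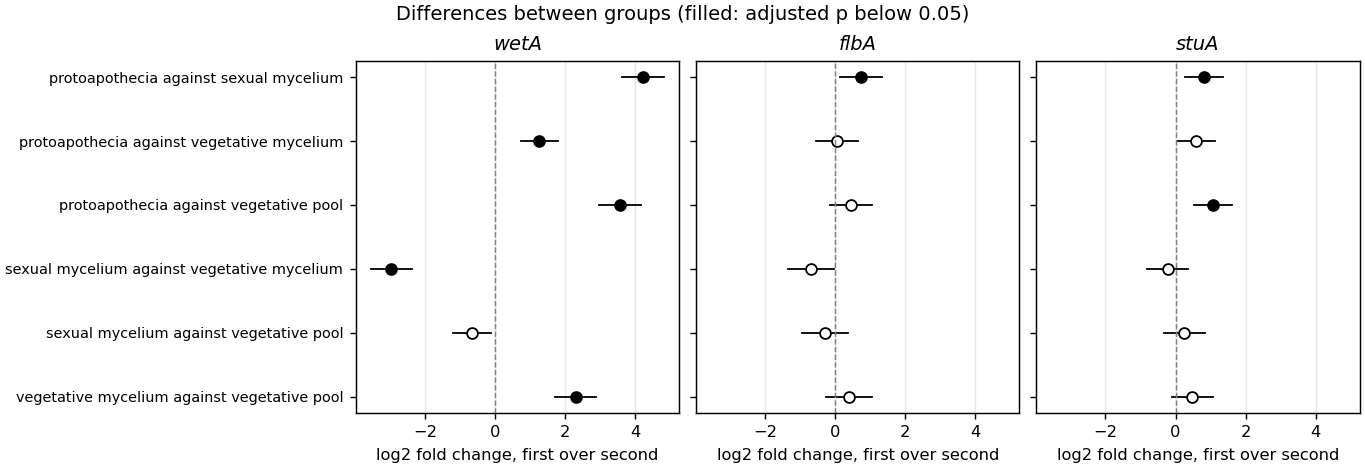
Log2 fold change of each regulator in 6 comparisons, first group over second, with 95% intervals from the fit over all 9 libraries and filled points where the edgeR adjusted p is below 0.05. wetA passes in 5 comparisons, from −2.96 to 4.23, flbA in 1 at 0.74 and stuA in 2 at 0.82 and 1.07.

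flbA varied little. Protoapothecia A, B and C had 133.9, 142.7 and 81.3 CPM, the sexual libraries 71.5 and 71.7 CPM, the dark vegetative libraries 101.9 and 128.7 CPM, and the vegetative pool 83.0 and 92.3 CPM. Protoapothecia C stood below the other protoapothecium libraries and below both pool libraries, so this group overlapped with the dark vegetative mycelium and with the pool. It lay above the sexual mycelium in all 3 libraries.

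The 1 flbA call was the comparison of protoapothecia (119.3 ± 33.2 CPM, SD, n = 3) with sexual mycelium (71.6 ± 0.149 CPM, SD, n = 2), a 1.67-fold difference with a 95% interval of 1.10 to 2.53 (log2 0.74, SE 0.27, edgeR adjusted p = 0.0379). It was lost with library totals only, where the log2 change was 0.19 (edgeR adjusted p = 0.561) and the groups overlapped, and with scaling on genes of at least 100 counts, where it was 0.41 (edgeR adjusted p = 0.204). Leaving out 1 library ended it in 7 of 9 cases. The log2 change was 0.65 without protoapothecia A, 0.61 without protoapothecia B, 0.73 without sexual 1, and 0.74 without sexual 2, vegetative 2, pool 1 or pool 2, with edgeR adjusted p up to 0.142.

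Scaling moved all genes together in this comparison. The median log2 change over all tested genes was −0.14 with TMM, 0.03 with the RLE size factors and −0.69 with library totals only. Relative to that median, flbA was higher in protoapothecia by a log2 difference of 0.87 with TMM, 0.90 with RLE and 0.88 with library totals only. The corresponding differences for stuA were 0.96, 0.95 and 0.95. A change of scaling shifts all genes nearly alike, so these differences hardly move by construction, and they were not tested.

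No other flbA comparison passed the threshold. The difference of protoapothecia from dark vegetative mycelium was log2 0.05 (95% interval −0.54 to 0.64, edgeR adjusted p = 0.880). Its sign turned with library totals only (−0.29), with scaling on genes of at least 100 counts (−0.15), and without protoapothecia A (−0.04), protoapothecia B (−0.09) or vegetative 1 (−0.09). Against the pool it was 0.44 (95% interval −0.15 to 1.04, edgeR adjusted p = 0.162), and without protoapothecia C it was called at 0.70 (edgeR adjusted p = 0.0122). Sexual against dark vegetative mycelium gave −0.69 (95% interval −1.34 to −0.04, edgeR adjusted p = 0.109), called without protoapothecia C at −0.70 (edgeR adjusted p = 0.0244). The intervals leave room for differences of about the size of the 1 call.

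stuA was abundant in every library and somewhat higher in protoapothecia. Protoapothecia A, B and C had 967.5, 732.7 and 1105 CPM, the sexual libraries 601.1 and 461.5 CPM, the dark vegetative libraries 602.2 and 640.0 CPM, and the pool 461.4 and 429.1 CPM. All 3 protoapothecium libraries lay above all 6 mycelium libraries, which spanned 429.1 to 640.0 CPM. On the TMM scale the stuA libraries of the 4 groups did not overlap, a trait whose share over all tested genes was not counted. Among the mycelium groups the gaps were narrow. Sexual 2 and pool 1 lay at 461.5 and 461.4 CPM, and sexual 1 and vegetative 1 at 601.1 and 602.2 CPM. With RLE scaling, the sexual mycelium and the pool overlapped. With library totals only, the protoapothecia overlapped with the sexual and dark vegetative mycelium, and these mycelium groups overlapped with each other.

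The firmest stuA difference was with the vegetative pool. Protoapothecia had 935.2 ± 188 CPM (SD, n = 3) and the pool 445.3 ± 22.8 CPM (SD, n = 2), a 2.10-fold difference with a 95% interval of 1.43 to 3.09 (log2 1.07, SE 0.25, edgeR adjusted p = 0.00369). This call held in 16 of 16 alternatives, between 0.70 and 1.24 on the log2 scale. Against sexual mycelium (531.3 ± 98.7 CPM, SD, n = 2) stuA was 1.76-fold higher with a 95% interval of 1.2 to 2.58 (log2 0.82, SE 0.24, edgeR adjusted p = 0.0163). That call was lost with library totals only at log2 0.26 (edgeR adjusted p = 0.355), with scaling on genes of at least 100 counts at 0.49 (edgeR adjusted p = 0.0992) and without sexual 2 at 0.64 (edgeR adjusted p = 0.141).

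Against dark vegetative mycelium (621.1 ± 26.7 CPM, SD, n = 2) the stuA difference was log2 0.59 (95% interval 0.04 to 1.14, edgeR adjusted p = 0.0529), just outside the threshold. It was called with RLE scaling at 0.70 (edgeR adjusted p = 0.0190), with DESeq2 at 0.69 (adjusted p = 0.00339) and without protoapothecia B at 0.75 (edgeR adjusted p = 0.00751). No stuA difference among the 3 mycelium groups passed the threshold in the fit over all libraries. Both dark vegetative libraries lay above both pool libraries, and a fit of these groups alone called that difference at log2 0.49 (edgeR adjusted p = 0.0414). The log2 differences were −0.23 for sexual over dark vegetative (95% interval −0.81 to 0.36, edgeR adjusted p = 0.585), 0.25 for sexual over pool (−0.33 to 0.84, edgeR adjusted p = 0.534) and 0.48 for dark vegetative over pool (−0.11 to 1.07, edgeR adjusted p = 0.392).

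Per kilobase of mRNA, a scale that takes transcript length into account, wetA and stuA changed places between groups. Whether counts scale with mRNA length alike in the amplified protoapothecium RNA and in mycelium was not tested. In protoapothecia the mean was 733.1 CPM per kb for wetA, 314.9 for stuA and 36.2 for flbA. In sexual mycelium it was 39.1 CPM per kb for wetA, 178.9 for stuA and 21.7 for flbA. Ranked by CPM per kb among all genes, wetA stood at 169 to 176 in protoapothecia and at 2735 to 2856 in sexual mycelium. The rank of stuA stayed between 390 and 772, and that of flbA between 2760 and 4689, over the 9 libraries.

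Ratios within a library need no scaling between libraries. The wetA to stuA ratio per kb was 2.16, 2.99 and 2.04 in protoapothecia A, B and C, and 1.42 and 1.49 in dark vegetative mycelium. In sexual mycelium it was 0.186 and 0.261, and in the pool 0.319 and 0.511. Per kb, wetA was thus above stuA in all protoapothecium and dark vegetative libraries and below it in all sexual and pool libraries. The 4 groups did not overlap in this ratio. In dark vegetative mycelium, wetA above stuA rests on the division by mRNA length. There wetA had 472.8 and 526.3 CPM, below stuA with 602.2 and 640.0 CPM. With 3 libraries against 2 there are 10 arrangements, so a one-sided exact permutation test cannot go below 0.1, and no p is given.

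The flbA to stuA ratio per kb lay between 0.0662 and 0.194 in the 9 libraries. Its lowest value was in protoapothecia C, which had the lowest flbA and the highest stuA of its group, and its highest was in pool replicate 2. Protoapothecia A and B had ratios of 0.125 and 0.175, within the range of the mycelium libraries of 0.107 to 0.194. The wetA to flbA ratio per kb ran from 17.0 to 30.8 in protoapothecia, 8.23 to 9.34 in dark vegetative mycelium, 1.97 to 2.64 in the pool and 1.74 to 1.87 in sexual mycelium, again with no overlap.

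**Figure D3:**
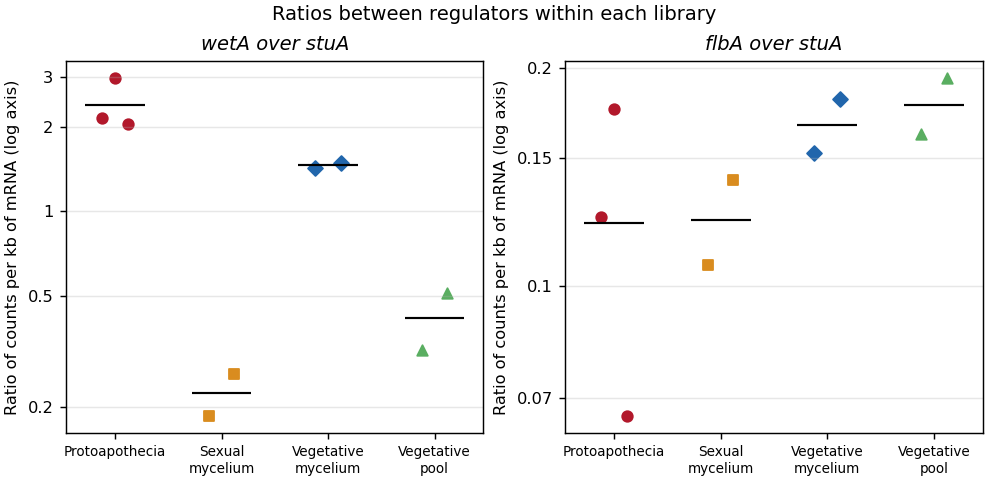
Ratio of wetA to stuA (left) and of flbA to stuA (right) within each library, from counts per kb of mRNA on log axes with different ranges, with 1 point per library and bars at the group means. The wetA to stuA ratio is 1.42 or more in protoapothecia and dark vegetative mycelium and 0.511 or less in sexual mycelium and the pool, while the flbA to stuA ratio overlaps between groups.

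Set against all tested genes, the 3 regulators spanned very different ranges over the 9 libraries. wetA covered 4.33 on the log2 CPM scale, and 70.1% of tested genes had a smaller range. flbA covered 1.0, with 5.70% of tested genes below it, and stuA 1.37, with 13.0% below it. The median range of tested genes was 3.10. The root mean square difference between mean-centred log2 profiles was 0.45 for flbA and stuA, 1.42 for wetA and stuA and 1.52 for wetA and flbA.

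Other genes of the conidiation cascade were looked for by product description. The list held 5 genes, namely the 3 regulators, fluG (PCON_09765) and abaA (PCON_12773), and no description matched brlA, flbB to flbE or medA. In protoapothecia 4 of 5 were higher than in sexual mycelium, 2 of 5 than in dark vegetative mycelium and 3 of 5 than in the pool, and none was lower. Of all tested genes, 26.7%, 36.4% and 34.8% were called higher in those comparisons. The median log2 change of the list was 0.82, 0.59 and 1.07 in those comparisons, against −0.14, 0.15 and 0.05 over all tested genes. The gene at the median was stuA each time, so these medians repeat the stuA values. Of the 2 genes besides the regulators, fluG was called higher in each of these comparisons and abaA in none. With library totals only, with scaling on genes of at least 100 counts, or without sexual 2, 2 of 5 were higher than in sexual mycelium.

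fluG had the steepest profile of the cascade list. In Aspergillus nidulans FluG is a glutamine synthetase-like protein needed to start conidiation, and the model here has Pfam hits for a glutamine synthetase catalytic domain and an amidohydrolase domain in the authors' deposited table. It had 3642, 7925 and 3549 CPM in protoapothecia A, B and C, 273 and 315 CPM in sexual mycelium, 4.58 and 6.65 CPM in dark vegetative mycelium and 20.9 and 29.1 CPM in the pool. These 4 groups did not overlap, a trait whose share over all tested genes was not counted. By CPM, fluG ranked between 12 and 37 of all genes in protoapothecia. It was called in all 6 comparisons, with log2 4.10 for protoapothecia over sexual mycelium (edgeR adjusted p = 7.24e-05) and 9.81 over dark vegetative mycelium (edgeR adjusted p = 1.92e-06). Its call between dark vegetative mycelium and the pool (log2 −2.15) was lost without any 1 of the 6 mycelium libraries.

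The order of groups differed between fluG and wetA below the protoapothecia. fluG was higher in sexual than in dark vegetative mycelium by log2 5.71 (edgeR adjusted p = 8.88e-05), where the wetA difference was −2.96. abaA, the TEA-domain factor that acts before wetA in Aspergillus nidulans, was called in none of the 6 comparisons by edgeR or DESeq2 and at no unadjusted p below 0.05. Its means were 34.4 ± 21.9 CPM (SD, n = 3) in protoapothecia, 47.7 ± 3.78 in sexual mycelium, 43.0 ± 1.65 in dark vegetative mycelium and 40.5 ± 0.00703 in the pool (SD, n = 2 each).

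Velvet proteins such as VeA, VelB and VosA join asexual and sexual development in Aspergillus, and VosA acts beside WetA in spore maturation. No description matched a velvet name or LaeA, so the 5 genes with a Pfam velvet domain in the authors' deposited table were taken, a list added after the table was read. All 5 were higher in protoapothecia than in sexual mycelium, and 3 of 5 were higher than in dark vegetative mycelium and than in the pool, with none lower, beside 26.7%, 36.4% and 34.8% of all tested genes called higher. Median log2 changes were 2.17, 1.17 and 1.17, beside −0.14, 0.15 and 0.05 over all tested genes. With library totals only, 4, 3 and 2 of the 5 were higher, and with RLE scaling 5, 4 and 5. The widest change, singled out after the values were seen, was that of PCON_03960. It had 1134 ± 309 CPM (SD, n = 3) in protoapothecia and 60.4 ± 3.80, 35.8 ± 2.45 and 32.8 ± 1.52 CPM (SD, n = 2 each) in sexual mycelium, dark vegetative mycelium and the pool (log2 4.23, edgeR adjusted p = 6.60e-06, over sexual mycelium). PCON_03414 and PCON_06367 were not called over dark vegetative mycelium (log2 0.29 and 0.60). Over the pool PCON_06367 and PCON_03932 were not called (0.54 and 1.17).

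The RGS domain of flbA occurs in 5 gene models in the Pfam column, a list that was likewise added after the table was read. In protoapothecia 3 of 5 were higher than in sexual mycelium, 2 of 5 than in dark vegetative mycelium and 2 of 5 than in the pool, with none lower. All tested genes were called higher in 26.7%, 36.4% and 34.8% of cases, so the last 2 counts were near the background. Median log2 changes were 0.74, 0.84 and 0.44, beside −0.14, 0.15 and 0.05 over all tested genes, and the first and last of them are the flbA values themselves. Without flbA, 2 of 4 were higher in each comparison, with medians of 1.115, 1.228 and 1.011. A pair of the other RGS genes had larger log2 changes than flbA in each comparison, though differences between genes were not tested. PCON_08067, with no described function, had 951.7, 906.4 and 887.3 CPM in protoapothecia and 97.9 ± 13.3, 64.9 ± 2.01 and 41.3 ± 5.80 CPM (SD, n = 2 each) in sexual mycelium, dark vegetative mycelium and the pool (log2 3.22, 3.82 and 4.47, highest edgeR adjusted p = 6.09e-06). The gene described as MDM1 (PCON_12713), a structural protein of organelle inheritance in yeast, rose by log2 1.81, 1.61 and 1.66. rax1 (PCON_10675) was not called in any of the 3, at log2 0.42, −0.22 and 0.14, but without protoapothecia B it was called against sexual mycelium and the pool.

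RGS proteins act on G protein alpha subunits. A list of 14 genes, whose descriptions matched terms for heterotrimeric G proteins and cAMP signalling, was counted. In protoapothecia 7 were higher and 3 lower than in sexual mycelium, 4 higher and 5 lower than in dark vegetative mycelium, and 6 higher and 4 lower than in the pool. The shares of all tested genes were 26.7% higher and 34.5% lower, 36.4% and 32.8%, and 34.8% and 34.4%. Median log2 changes were 0.43, 0.28 and 0.42, against −0.14, 0.15 and 0.05 over all tested genes. With library totals only, the counts were 2 higher and 5 lower, 2 and 5, and 3 and 5, and the medians against sexual and dark vegetative mycelium were −0.12 and −0.06. The number higher fell to 4 without sexual 1 and to 2 without sexual 2, to 2 without vegetative 1 or 2, and to 2 without pool 1 or 2, each in its own comparison. The counts of the beta-like protein PCON_01733 and of the regulatory subunit PCON_06580 are uncertain because their models overlap another gene. PCON_01733, described only as like a beta subunit, was among the genes counted lower in each of these comparisons.

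The gene described as the G protein alpha subunit (PCON_07314) had a log2 change over sexual mycelium near that of flbA. Its levels were 500.0, 357.4 and 362.8 CPM in protoapothecia A, B and C and 250.1 ± 59.8 CPM (SD, n = 2) in sexual mycelium (log2 0.70, edgeR adjusted p = 0.0362, with log2 0.15 and no call with library totals only). That call was lost in 8 of 16 alternatives, among them those without protoapothecia A, sexual 2, vegetative 2, pool 1 and pool 2. The likeness to flbA did not extend to the vegetative groups. Over dark vegetative mycelium and the pool PCON_07314 changed by log2 0.59 and 0.76, and flbA by 0.05 and 0.44. Of these, PCON_07314 over the pool was called (edgeR adjusted p = 0.0235), though not with library totals only. The alpha-2 subunit (PCON_07308) rose in all 3 comparisons with protoapothecia, by log2 1.39, 1.30 and 1.72. The receptor GPR1 (PCON_06938) fell, with log2 changes of −3.66, −3.63 and −3.78, to 3.94 ± 1.48 CPM (SD, n = 3) from means of 46.5 to 51.7 CPM in mycelium. Adenylate cyclase (PCON_08682), which makes cAMP, was not called in any of the 3, at log2 −0.33, −0.21 and 0.02, though it was called lower than in sexual mycelium with library totals only and with scaling on genes of at least 100 counts.

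Relatives of StuA were found as 4 genes, the APSES and MBF-type cell-cycle factors and StuA itself. In protoapothecia 4 of 4 were higher than in sexual mycelium, 3 of 4 than in dark vegetative mycelium and 4 of 4 than in the pool, where 26.7%, 36.4% and 34.8% of all tested genes were called higher. The list medians were log2 1.71, 2.17 and 1.93, against −0.14, 0.15 and 0.05 over all tested genes. With library totals only, or without sexual 2, 2 of 4 were higher than in sexual mycelium. The other genes of the list had larger log2 changes than stuA in each comparison. res2 (PCON_07301), a partner in the fission yeast G1/S transcription factor whose model carries the KilA-N domain that the stuA model lacks in the Pfam column, had 814.7, 701.9 and 750.5 CPM in protoapothecia and 142.1 ± 17.6, 74.6 ± 1.22 and 126.6 ± 62.2 CPM (SD, n = 2 each) in the other groups in the same order (log2 2.41, 3.34 and 2.58). XBP1 (PCON_05075), a repressor in yeast, rose by log2 2.52, 3.41 and 2.86, and cdc10 (PCON_03481) by 1.0, 1.0 and 1.27, where the first of these was lost with library totals only and without sexual 2.

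**Figure D4:**
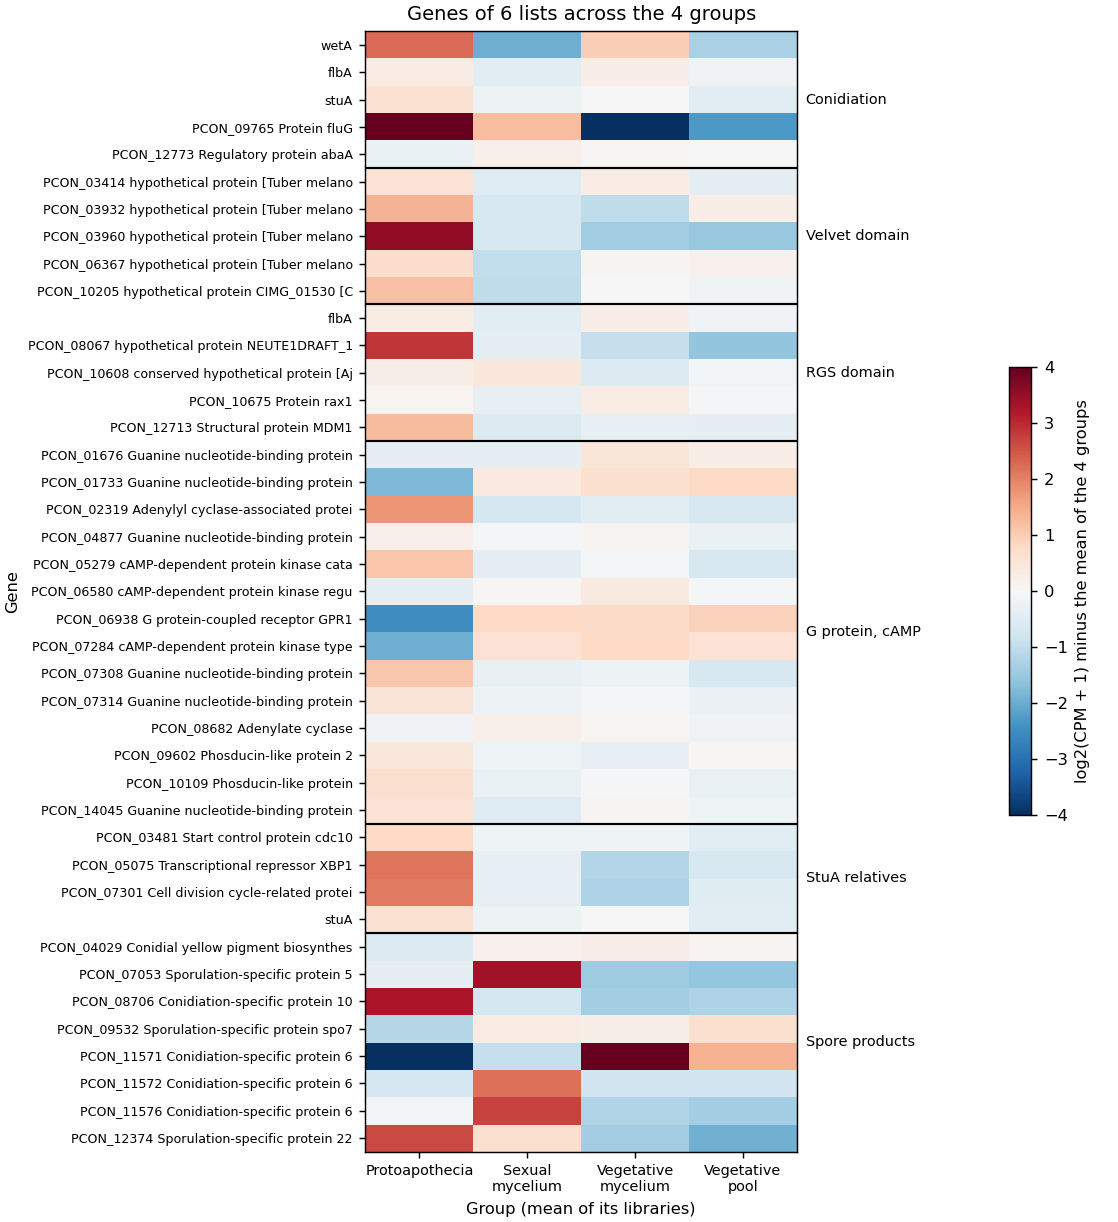
Mean log2(CPM + 1) of each gene in each group minus the mean of the 4 groups, for the cascade, velvet, RGS, G protein, StuA-relative and spore-product genes, with colours that stop at 4 and −4, which fluG and PCON_11571 exceed. flbA and stuA stay pale, wetA is dark in protoapothecia and sexual mycelium, and the spore products follow no single order of groups.

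Genes described as conidium or spore products numbered 8. In protoapothecia 1 was higher and 6 lower than in sexual mycelium, and 3 were higher and 3 lower both than in dark vegetative mycelium and than in the pool. Over all tested genes 26.7% were higher and 34.5% lower than in sexual mycelium, 36.4% and 32.8% than in dark vegetative mycelium, and 34.8% and 34.4% than in the pool, so the last 2 pairs of counts were near the background. Median log2 changes were −2.44, 1.89 and 2.40, beside −0.14, 0.15 and 0.05 over all tested genes. Without sexual 2, 3 were lower than in sexual mycelium. Without protoapothecia C, vegetative 1 or vegetative 2, 1 was higher than in dark vegetative mycelium, and without pool 1 or pool 2, 1 was higher than in the pool. Their summed level was 61.2 to 317.9 CPM in protoapothecia, 654.4 to 1353 CPM in sexual mycelium, 632.1 to 858.9 CPM in dark vegetative mycelium and 175.1 to 182.4 CPM in the pool. The protoapothecia lay below sexual and dark vegetative mycelium in this sum and overlapped with the pool. The list also holds sporulation-specific protein 5, spo7 and SPO22, whose descriptions do not name conidia, so the sum is not a measure of conidial products alone. Single genes carried the sum, since sporulation-specific protein 5 (PCON_07053) had 575.2 and 1216 CPM in sexual mycelium and the conidiation gene PCON_11571 had 552.2 and 751.8 CPM in dark vegetative mycelium. PCON_07053 is named because of its level, after the values were seen, and its description names sporulation and not conidia. Without PCON_07053 the sums of protoapothecia and sexual mycelium overlap. Without PCON_11571 the sums of protoapothecia and dark vegetative mycelium overlap.

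Conidiation-specific protein 6, found in conidia of Neurospora crassa, is described for 3 models on scaffold 615, among which counts could be split. Of these, PCON_11571 had 0, 0 and 3 counts in protoapothecia A, B and C, a mean of 0.0495 CPM, against 652.0 ± 141 CPM (SD, n = 2) in dark vegetative mycelium, 12.3 and 18.2 CPM in sexual mycelium and 83.0 and 77.4 CPM in the pool. Among the mycelium groups PCON_11571 had its highest level where wetA did and its lowest where wetA did. The other models on this scaffold went the other way and were highest in sexual mycelium. PCON_11572 was at 0 counts in all dark vegetative and pool libraries and had 34 and 316 counts in sexual mycelium. PCON_11576 had 87 and 849 counts in sexual mycelium, 2 and 6 in dark vegetative mycelium and 2 and 3 in the pool. Conidiation-specific protein 10 (PCON_08706) had 34, 3 and 1856 counts in protoapothecia A, B and C, so its level in that group was set by library C. The meiosis gene SPO22 (PCON_12374), known from yeast, rose in protoapothecia by log2 2.14, 4.93 and 6.24.

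Of 10 genes described as regulators or markers of sexual development, 1 was higher and 4 lower in protoapothecia than in sexual mycelium, 2 higher and 4 lower than in dark vegetative mycelium, and 3 higher and 5 lower than in the pool. Among all tested genes 26.7% were higher and 34.5% lower, 36.4% and 32.8%, and 34.8% and 34.4%, so most of these counts were near the background. Median log2 changes were −0.63, −0.06 and −0.70, beside −0.14, 0.15 and 0.05 over all tested genes, and the second became 0.05 with RLE scaling. Against sexual mycelium, 2 were higher with RLE scaling, with DESeq2 or without protoapothecia B. There 6 were lower with library totals only, with scaling on genes of at least 100 counts or without protoapothecia C, and 5 without protoapothecia A. Their summed level was 1672 to 2571 CPM in protoapothecia, 1733 to 2363 CPM in sexual mycelium, 2419 to 2628 CPM in dark vegetative mycelium and 1772 to 1879 CPM in the pool, and no gene of the list was at 0 in all libraries of a group. Striatin Pro11 (PCON_13421), needed for fruiting bodies in Sordaria macrospora, rose in protoapothecia by log2 1.61, 1.25 and 1.18. It was the 1 gene called higher than in sexual mycelium. Other genes, named after the values were seen, fell in all 3 comparisons. They were the steA genes PCON_01154 (−2.78, −2.51 and −2.32) and PCON_08484 (−1.17, −2.04 and −1.70). The pheromone receptor transcription factor PCON_08725 also fell (−1.03, −1.79 and −1.29). The other steA genes did not fall throughout. PCON_08877 was called lower than in dark vegetative mycelium (−1.32) and the pool (−0.89), the latter lost with the 2 groups alone. PCON_10415 was called higher than in the pool (1.13). The mating-type gene PCON_07491 was called higher than in dark vegetative mycelium (2.40) and the pool (2.68). Against sexual mycelium PCON_08877, PCON_10415 and PCON_07491 were not called (−0.60, 0.56 and 0.42). The summed levels of this list did not order the groups as wetA did, and their part in the wetA differences was not tested.

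The genes whose profile was most like each regulator were taken among 5260 tested genes with a described product and no overlap, by the root mean square difference of mean-centred log2 CPM over 9 libraries. For wetA the nearest were the Uba3-binding protein but1 (PCON_08697) at 0.55, a tRNA methyltransferase (PCON_12663) at 0.64, dihydroxyacetone kinase 2 (PCON_05323) at 0.66, a demethylmenaquinone methyltransferase (PCON_04231) at 0.67 and an aldehyde dehydrogenase (PCON_02174) at 0.68. These distances grow with the amplitude of a profile, and the SD of log2 CPM over the 9 libraries was 1.88 for wetA, 0.39 for flbA and 0.48 for stuA. The aldehyde dehydrogenase had 767.8, 83.6, 381.2 and 198.0 CPM on average in protoapothecia, sexual mycelium, dark vegetative mycelium and the pool, the group order of wetA.

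Many flat profiles lay near flbA and stuA. For flbA the nearest were the homologue of mRNA turnover protein 4 (PCON_06117) at 0.12, TSR2 (PCON_07394) at 0.15 and the exosome nuclease rrp6 (PCON_04048) at 0.16, all 3 described as RNA-processing or ribosome factors, then the mitochondrial import receptor tom-40 (PCON_10939) at 0.18 and a cytochrome P450 (PCON_01613) at 0.19. For stuA they were a LIM domain protein (PCON_01703) at 0.10, the cohesin subunit SMC1 (PCON_01689) at 0.14, the mitosis inhibitor nif1 (PCON_05856) at 0.14, the lipid kinase its3 (PCON_05917) at 0.15 and bouquet formation protein 4 (PCON_06272) at 0.15. The 9 points behind each value share their libraries and scaling, so the likeness is a description.

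**Figure D5:**
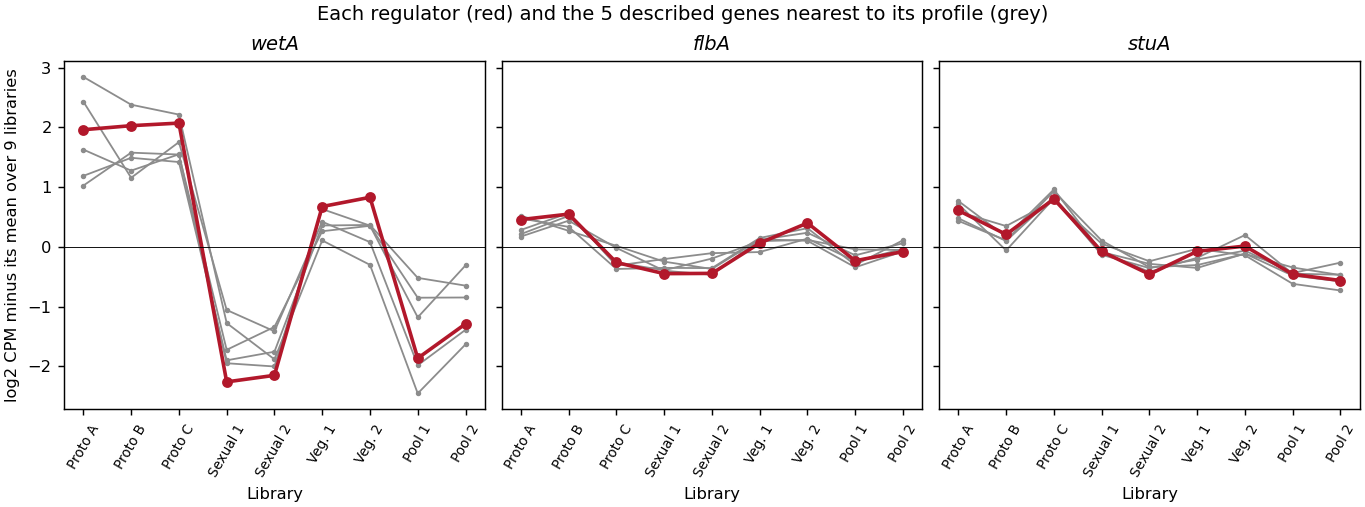
Log2 CPM of each regulator (red) and of the 5 described genes with the most similar profile (grey) in each library, minus each gene's mean over the 9 libraries. The wetA panel spans 4.33 for wetA and the grey lines spread around it, with a nearest difference of 0.55, while the flbA and stuA panels are flat and tight, with nearest differences of 0.12 and 0.10.

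In the authors' deposited table, each comparison carries a consensus call of −1, 0 or 1 and ratios by 3 methods named classic, DESeq and LOX. That table calls wetA higher in protoapothecia than in sexual mycelium (ratios 12.80, 21.26 and 17.65) and than in the pool (9.60, 13.42 and 15.11), lower in sexual than in dark vegetative mycelium (0.15, 0.12 and 0.20), and higher in dark vegetative mycelium than in the pool (5.05, 5.12 and 4.25). It gives 0 for wetA between protoapothecia and dark vegetative mycelium, with ratios of 1.91, 2.62 and 3.56, a comparison that edgeR called here. The authors' deposited table gives 0 for flbA and stuA in all 6 comparisons, including the 3 that edgeR called here. Its stuA ratios between protoapothecia and dark vegetative mycelium ran from 1.19 to 2.40 by method.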

How the data were processed

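A single table, deposited by the authors, holds raw read counts per gene model and library, per the file headers. It also holds the authors' consensus calls as a score of −1, 0 or 1, ratios by 3 methods, gene model lengths and positions, and product descriptions by similarity, per the file headers. CASAVA 1.8.2 was used, and DESeq is named with no version, per the submitters' processing notes. How reads were aligned and counted, on which build and whether by strand is not given in the sources used here. Scaffold positions are those of the deposited table. Start and end were the same as in a RefSeq table of assembly Pcon_v1 for 13342 of 13367 shared locus tags. The table held 0 per-sample columns that matched no library.

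Libraries were grouped by title or description. Counts were fitted in R 4.3.3 with edgeR 4.0.16 (limma 3.58.1): filterByExpr (minimum count 10, minimum total 15), TMM, 1 robust quasi-likelihood fit over 4 groups with 5 residual degrees of freedom, Benjamini-Hochberg adjustment over 11787 genes and a threshold of 0.05, for each of 6 comparisons. Intervals come from the fit's t distribution, and SDs are over libraries. Profiles used log2 CPM with a prior count of 2. The fit was tested on simulated data.

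The regulators and lists were chosen with earlier results of these data known. Named genes are the 3 regulators, at most 4 genes per list of product-description matches, 5 nearest described profiles per regulator and the neighbouring models. Further genes of the lists are named beside these, some of them after their values were seen. The G protein, StuA-relative and sexual lists lost 3, 3 and 2 matches that named another protein, and overlapping models are named only as uncertain. Alternatives were RLE scaling, no low-count filter, a fit without robust estimation, only the 2 groups compared, DESeq2 1.42.0, leaving out each library, and a replicate block. Library totals only, scaling on genes of at least 100 counts and a fit of the 6 mycelium libraries were added after seeing the data.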

Additional observations from a re-analysis of the deposited data

How the results depend on the processing

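Of 306 alternative values for the 3 regulators, 276 kept their direction and their side of the threshold. The cause of the other changes was not tested. For protoapothecia over sexual mycelium, flbA lost its call with library totals only (0.19), scaling on genes of at least 100 counts (0.41) and the 2 groups alone (0.87), and stuA with the first 2 (0.26 and 0.49). Over dark vegetative mycelium, flbA reversed with those 2 scalings (−0.29 and −0.15), and stuA gained a call with RLE (0.70) and DESeq2 (0.69). With the 2 groups alone, flbA gained one between sexual and dark vegetative mycelium (−0.71) and stuA between dark vegetative mycelium and the pool (0.49). Without the protoapothecia, wetA gained one between sexual mycelium and the pool (−0.65) and flbA between sexual and dark vegetative mycelium (−0.68).

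Leaving out 1 library at a time gave log2 changes of 0.61 to 0.98 (flbA) and 0.64 to 1.02 (stuA) for protoapothecia over sexual mycelium, −0.094 to 0.29 and 0.48 to 0.75 over dark vegetative mycelium, and 0.32 to 0.70 (flbA) over the pool. It gave −0.86 to −0.51 (flbA) for sexual over dark vegetative mycelium and −0.92 to −0.34 (wetA) for sexual mycelium over the pool.

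Same-numbered mycelium libraries did not deviate together (correlations 0.119, −0.157 and −0.0431), and protoapothecia carry letters. With a replicate block over the 6 mycelium libraries, flbA was called at −0.67 between sexual and dark vegetative mycelium and wetA at −0.63 between sexual mycelium and the pool.

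Genes called between dark vegetative mycelium and the pool numbered 613, against 1635 with the 2 groups alone, 1229 with DESeq2, 1330 without the protoapothecia, 1076 with the replicate block, and 84 (without vegetative 1) to 875 when 1 library was left out. The same omissions gave 2263 to 4276 for sexual against dark vegetative mycelium (3484) and 2265 to 4239 against the pool (3448). For protoapothecia against sexual mycelium, 3146 genes were higher and 4071 lower, against 2190 and 5233 with library totals only. The 3 regulators had at least 667 counts in each library, and the limit that depth sets on their calls was not tested.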

Other observations

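The gene models next to the regulators had profiles of their own. wetA is the first model on its scaffold, and the next one, PCON_02677, lies 4732 bases further and is described as an ADP-ribosylglycohydrolase. PCON_02677 averaged 4.82 ± 0.423 CPM (SD, n = 3) in protoapothecia against 25.7, 31.2 and 24.4 CPM in sexual mycelium, dark vegetative mycelium and the pool. It fell in protoapothecia, with log2 changes of −2.42, −2.70 and −2.34 (highest edgeR adjusted p = 4.85e-05), where wetA rose.

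Beside stuA, PCON_09041, a protein of unknown function on the opposite strand with 1360 bases between the models, averaged 29.8 ± 10.6 CPM (SD, n = 3) in protoapothecia against 1.8, 2.33 and 1.93 CPM in the same mycelium groups. It rose by log2 4.04, 3.66 and 3.93 (highest edgeR adjusted p = 8.37e-05), more than stuA in each comparison. On the other side, PCON_09043, 1735 bases away, averaged 4.99 ± 2.13 CPM in protoapothecia and 3.19 ± 0.582 CPM in sexual mycelium and was under 0.2 CPM on average in both vegetative groups. Before flbA on the scaffold, 2116 bases away, cell division control protein 73 (PCON_02903) averaged 30.9, 27.3, 18.3 and 20.7 CPM in protoapothecia, sexual mycelium, dark vegetative mycelium and the pool. On the other side, 1852 bases away, PCON_02905 averaged 1.34 CPM in protoapothecia and was near 0 elsewhere.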
